A study of Rattus norvegicus with 2 samples.

Results

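Gjb2, Gjb6, Gja1 and Gjb1, which encode connexins 26, 30, 43 and 32, were followed in the cochlear duct of newborn rats. The 4 genes were found by their symbols among the 32623 genes counted in both libraries, where the files list them as ENSRNOG00000008855, ENSRNOG00000022116, ENSRNOG00000000805 and ENSRNOG00000003746. Single cells of Sprague-Dawley rats were captured in droplets as 1 library at P1 and 1 library at P7, that is at postnatal days 1 and 7. No treatment, transgene or other agent is named for either age, and each library pooled the tissue of many animals. With 1 library per age, the age and the library cannot be told apart and a test between the ages is not possible. Every interval given is at the 95% level and covers counting error only.

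Connexins assemble in groups of 6 into a channel through the cell membrane, and channels of neighbouring cells dock into gap junctions that pass ions and small molecules. In the cochlea, connexins 26 and 30 join the supporting cells of the sensory epithelium into a network and the fibrocytes of the lateral wall into another, and both are known from inherited deafness. The same channels, undocked, release ATP in the greater epithelial ridge before hearing begins. Connexin 43 is the widespread connexin of connective tissue, bone and vessels, and connexin 32 lies in the myelin of Schwann cells.

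Levels are unique molecular identifiers (UMIs, 1 per captured transcript) of a gene per 1000000 UMIs of the cells summed, written CPM. After the study's limits on cells, 12779 of 14068 barcodes were kept at P1 and 12581 of 14501 at P7, with medians of 6565 and 6878 UMIs, and 60 barcode sequences occurred in both libraries. The kept counts differ from those that the study reported, and the cause was not tested. Each cell was given to a class by 8 marker genes per list, none of them a connexin. A marker counted as up when it had a UMI and exceeded 2 times its share in the library, and a class needed 3 markers up and more than any other class. Classes made in this way are ranges of a marker score, not types, and each name below means cells that looked like that type by its markers.

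The labels call the cells greater epithelial ridge cells, but few cells carried epithelial markers. Only 234 P1 cells (1.83%) and 143 P7 cells (1.14%) were gated as epithelium, by Epcam, Cdh1, Esrp1, Spint2, Cldn3, Cldn7, Krt8 and Krt18. Fibrocytes numbered 2359 and 2064, other mesenchyme 4544 and 3785, and glia 1879 and 2873, while 21.7% and 23.4% of the cells joined no class. Between 17.5% and 42.0% of the cells of these 4 classes lay at the limit of the gate. The median cell of each had 4 to 6 of its own markers up and at most 1 of any other list. All 8 epithelial markers had UMIs in epithelium at both ages, with a summed level of 3368 CPM at P1 and 5233 CPM at P7. Macrophages, 170 and 188 cells by markers such as C1qa and Csf1r, should lack connexins 26, 30 and 32 and served as the background for these.

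Among the 8 classes of at least 50 cells in each library, Gjb2 was highest in epithelium at P1 and in the mesenchymal classes at P7. Melanocytes, with 8 cells in each library, held 9 Gjb2 UMIs at P1 (190.9 CPM, 87.3 to 362) and 38 at P7 (329.4 CPM, 233 to 452) and are not ordered. At P1 epithelium held 142.9 CPM (128 to 159, 340 UMIs), against 65.4 CPM in fibrocytes (61.4 to 69.5) and 61.1 CPM in other mesenchyme (58.6 to 63.7). At P7 epithelium held 105.9 CPM (90.8 to 123, 175 UMIs), against 173.3 CPM in fibrocytes (167 to 180) and 209.8 CPM in other mesenchyme (205 to 215). The level in fibrocytes was thus 0.457 times that in epithelium at P1 (0.404 to 0.519) and 1.64 times at P7 (1.40 to 1.92). At P1 fibrocytes and other mesenchyme did not differ beyond the interval of their ratio (0.868 to 1.01), whereas at P7 other mesenchyme was 1.21 times as high (1.16 to 1.27).

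**Figure D1:**
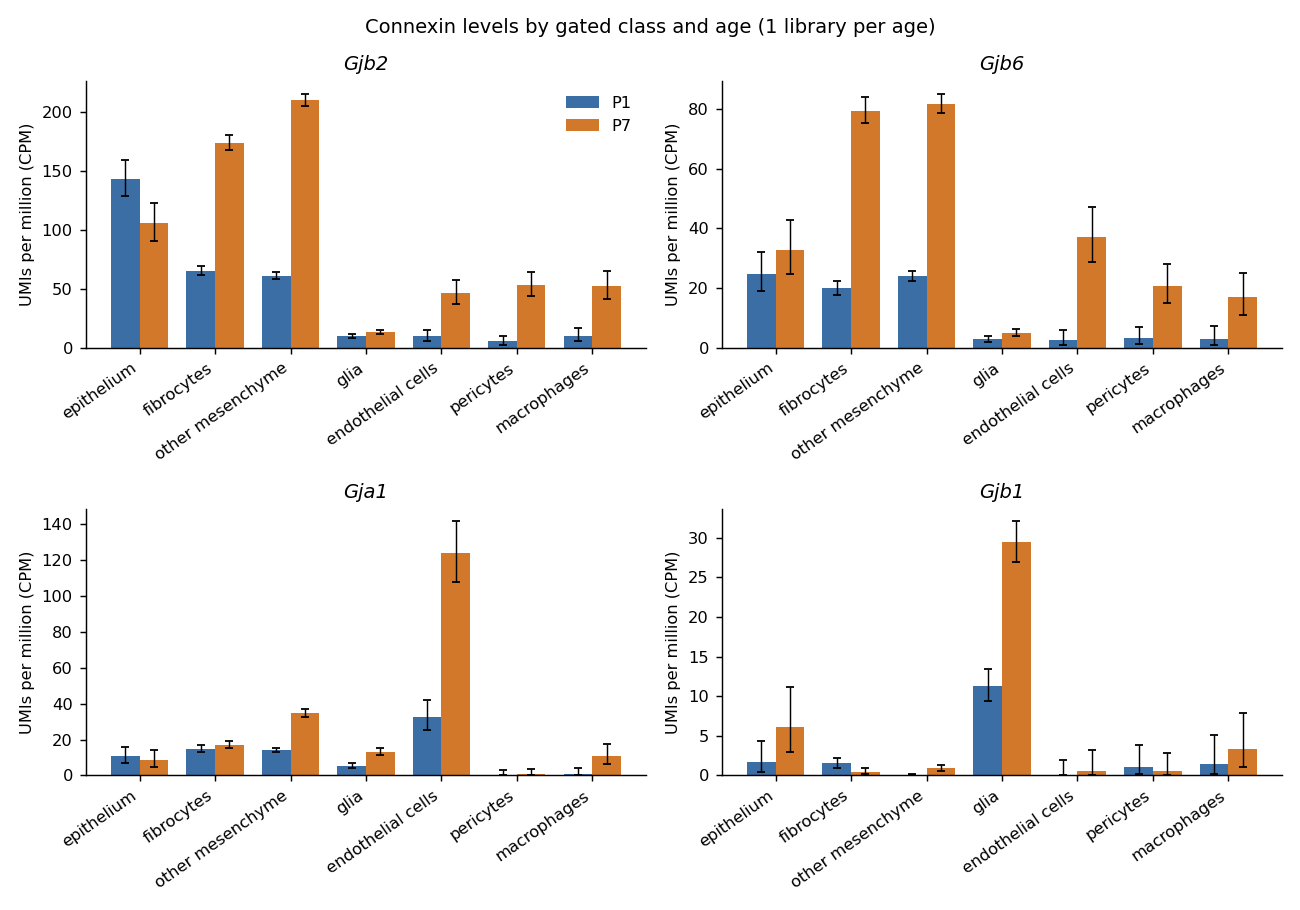
Level in CPM of each of the 4 connexin genes in 7 gated classes at P1 (blue) and P7 (orange), 1 library per age, with exact Poisson intervals as bars. Gjb2 leads in epithelium at P1 with 142.9 CPM and in other mesenchyme at P7 with 209.8 CPM, Gja1 leads in endothelial cells at both ages and Gjb1 in glia.

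Between the ages, Gjb2 was 2.65-fold higher at P7 in fibrocytes (2.47 to 2.85) and 3.43-fold higher in other mesenchyme (3.27 to 3.60). In epithelium it was 1.35-fold lower at P7, a log2 ratio of -0.43 (-0.70 to -0.17), which did not reach the 2-fold limit used for calls. Its size depended on the limits: it was -0.72 with a mitochondrial limit of 10% in place of 25%, -0.21 as a mean over cells, and -0.18 (-0.43 to 0.07) with a gate of 2 markers, where the interval includes 0. Among the epithelial cells with at least 2 of the tectorial membrane genes Tecta, Tectb, Otoa, Otog and Otogl up, 128 at P1 and 108 at P7, Gjb2 stood at 167.8 CPM at P1 and 92.7 CPM at P7, a log2 ratio of -0.86 (-1.19 to -0.53). These genes mark the ridge and the supporting cells that secrete the membrane. In the epithelial cells with neither these nor hair cell markers up, 91 and 34, it stood at 142.7 and 122.1 CPM, a ratio of -0.23 (-0.75 to 0.28). Hair cell markers were up in 15 cells at P1, with 5 Gjb2 UMIs in all, and in 1 cell at P7, so the make-up of the class also differed between the ages.

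Other cells' markers moved with age in the same classes. In macrophages Gjb2 measured 9.95 CPM at P1 (14 UMIs) and 52.2 CPM at P7 (77 UMIs, with 6 cells of 5 or more), and the 8 fibrocyte markers, all with UMIs there, summed to 7.25% and 16.3% of their level in fibrocytes. The 8 markers of the Gpc3 list, below, summed in epithelium to 339 CPM at P1 and 1178 CPM at P7, all 8 with UMIs. The part of such RNA in the P7 levels was not tested. Glia stood at 10.0 CPM at P1 and 13.0 CPM at P7, against 9.95 and 52.2 CPM in macrophages, and so were not shown to hold more than background. With doublets removed glia held 4.86 CPM at P1 and macrophages 2.70 CPM, the latter from 3 UMIs.

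More cells held Gjb2 at P7 in the mesenchymal classes, and more cells held several UMIs. A Gjb2 UMI was found in 25.2% of fibrocytes at P1 and 48.5% at P7, in 25.3% and 54.9% of other mesenchyme, and in 48.3% and 49.0% of epithelium. In macrophages the shares were 6.47% and 13.8%, at median depths of 7538 and 7108 UMIs. Because fibrocytes were deeper at P7 (7686 against 6028 UMIs per cell) and so was epithelium (11326 against 8812.5), each cell was also thinned to 2000 UMIs. The share then was 10.3% (9.07 to 11.6) at P1 and 22.5% (20.7 to 24.4) at P7 in fibrocytes, 10.3% and 29.7% in other mesenchyme, 25.1% (19.7 to 31.2) and 17.5% (11.3 to 25.2) in epithelium, and 2.47% and 5.81% in macrophages. The number of fibrocytes with 5 or more Gjb2 UMIs was 20 at P1 and 184 at P7, and that of other mesenchyme 67 and 397.

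**Figure D2:**
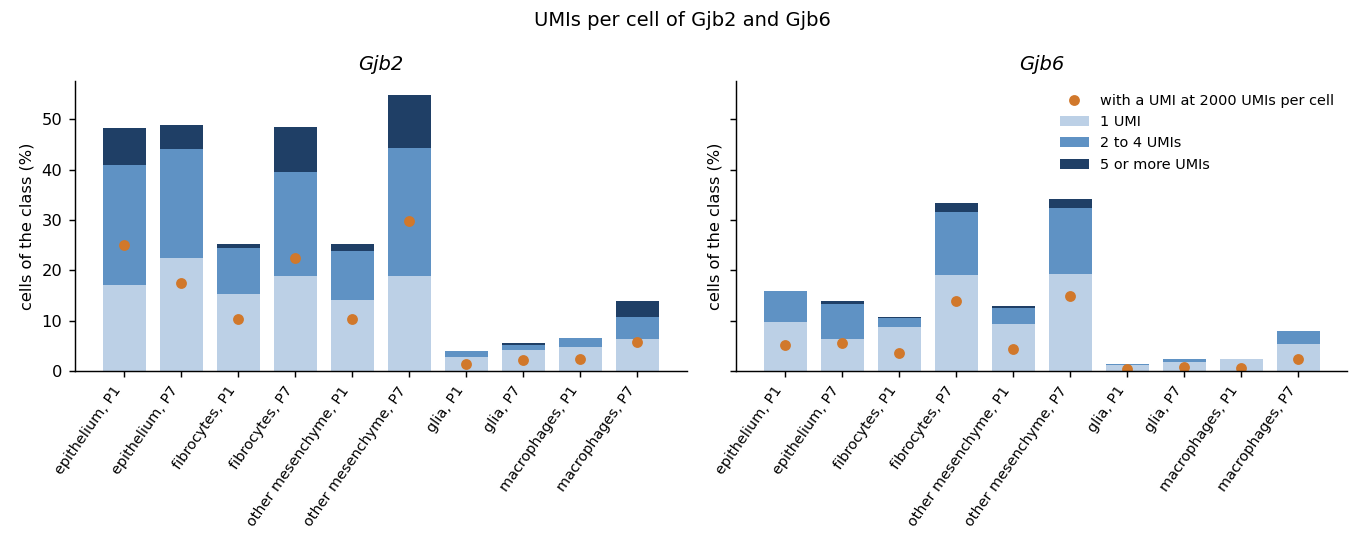
Share of cells in percent with 1, 2 to 4 and 5 or more UMIs (stacked bars) of Gjb2 (left) and Gjb6 (right) by gated class and age, and the share with any UMI after each cell was thinned to 2000 UMIs (points). Bars for fibrocytes and other mesenchyme are taller at P7 than at P1, those for epithelium nearly level, and macrophages give the background.

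Gjb6 was higher at P7 in the mesenchymal classes, as Gjb2 was, and rested on few UMIs in epithelium. At P1 its level was 24.8 CPM in epithelium (18.9 to 32.0, 59 UMIs), 24.0 CPM in other mesenchyme (22.4 to 25.6) and 19.9 CPM in fibrocytes (17.8 to 22.3). Epithelium did not differ from either beyond the interval of the ratio. At P7 it was 32.7 CPM in epithelium (24.5 to 42.6, 54 UMIs), 81.7 CPM in other mesenchyme (78.5 to 85.0) and 79.4 CPM in fibrocytes (75.2 to 83.8), the last pair with overlapping intervals. Fibrocytes were 3.98-fold higher at P7 (3.52 to 4.52) and other mesenchyme 3.41-fold (3.15 to 3.69), while the log2 ratio in epithelium was 0.40 (-0.16 to 0.96). A single P7 cell with hair cell markers up held 17 of the 54 epithelial Gjb6 UMIs. Without the epithelial cell of most Gjb6 UMIs in each library the ratio in epithelium was -0.05, and with a gate of 2 markers it was 0.72 (0.20 to 1.25). In cells with tectorial markers up the level was 33.1 CPM at P1 and 18.2 CPM at P7.

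A Gjb6 UMI was seen in 10.6% of fibrocytes at P1 and 33.5% at P7 (3.64% and 13.9% after thinning), and in 12.9% and 34.1% of other mesenchyme (4.38% at P1 and, at P7, a share between 13.8% and 16.2%). In epithelium the shares were 15.8% and 14.0% (5.19% and 5.56%), and in macrophages 2.35% and 7.98% (0.617% and 2.33%). Glia, at 2.80 and 5.03 CPM, were again not above macrophages, at 2.84 and 16.9 CPM.

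Gjb2 and Gjb6 are neighbours on rat chromosome 15, with Gja3 beside them, and their proteins mix within a channel. In the mesenchymal classes, cells with Gjb2 held Gjb6 more often than cells without it at equal depth. In fibrocytes thinned to 2000 UMIs, Gjb6 was found in 9.17% of cells with Gjb2 and 3.01% of cells without it at P1, and in 26.7% and 10.1% at P7. In other mesenchyme these shares were 12.1% and 3.49% at P1, and 23.6% and 11.3% at P7. In epithelium they rested on few cells, 5 of 58 against 4.05% at P1 and 1 of 22 against 5.77% at P7. Macrophages, the background class, had 1 of 4 against 0% at P1 and 2 of 10 against 1.23% at P7. Other mesenchyme also pools 2 sides that differ in both genes, given below, and the part of this in the shares was not tested. The level of Gjb2 over the 16 groups of 1 class at 1 age with at least 50 cells went with that of Gjb6 at r = 0.97 on the log2 scale, given as a description since the groups share libraries. No other of the 5615 genes searched was closer to either.

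The starts of the pair are shown because both genes moved together in the mesenchymal classes. The bases are the 250 before the start listed in RefSeq's GRCr8 assembly, 5′ to 3′ on the minus strand, whereas the counts were made on rn6. Gjb2 lies at chr15:35381954-35382203 and the outer of the 2 starts of Gjb6 at chr15:35410139-35410388. Capitals mark the GC box GGGCGG or its reverse complement CCGCCC, the kind of site that Sp1 binds, and TTAAAA or TTTTAA, an AT-rich stretch of the TATA kind. Both were chosen after the sequences had been read.
Gjb2: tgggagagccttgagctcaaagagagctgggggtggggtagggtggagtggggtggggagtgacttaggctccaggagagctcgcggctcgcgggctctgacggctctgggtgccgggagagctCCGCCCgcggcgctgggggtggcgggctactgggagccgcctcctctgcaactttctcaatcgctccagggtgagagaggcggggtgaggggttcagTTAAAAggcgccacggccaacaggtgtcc
Gjb6: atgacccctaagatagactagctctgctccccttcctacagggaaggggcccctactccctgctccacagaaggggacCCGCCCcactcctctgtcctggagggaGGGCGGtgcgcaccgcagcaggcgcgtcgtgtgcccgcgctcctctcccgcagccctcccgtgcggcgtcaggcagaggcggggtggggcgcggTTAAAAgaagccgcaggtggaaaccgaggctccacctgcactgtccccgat
Gjb2 holds 1 GC box and 1 TTAAAA, which begins 29 bases before the start, and Gjb6 holds 2 GC boxes and 1 TTAAAA, which begins 51 bases before it. Of 33469 rat starts of the same length, 30.5% held a GC box, 19.0% TTAAAA on either strand and 2.58% both. The GC content was 67.2% for Gjb2 and 68.0% for Gjb6, against 51.2% for Gja1 and 49.2% for Gjb1. The inner start of Gjb6 had 51.2% GC, 1 GC box and no TTAAAA. Gja1 and Gjb1 hold no GC box in this window, but Gja1 holds 2 overlapping matches to TTAAAA or its reverse complement and Gjb1 holds 1.

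Within other mesenchyme the connexins followed 1 of its 2 marker lists. Cells were divided, after levels had been seen, by whether more genes of the list with Gpc3, Dcn, Vcan, Col3a1, Col6a1, Edn3, Lum and Mgp were up or more of the list with Ccn3, Irx3, Scg3, Postn, Aldh1a2, Scara3, Nr2f1 and Itga8. The Gpc3 list led in 2266 P1 cells and 2421 P7 cells, the Ccn3 list in 2234 and 1341, so the make-up of the class differed between the ages. Gjb2 in the former was 110.6 CPM at P1 (106 to 116) and 281.1 CPM at P7 (273 to 289), and in the latter 15.4 CPM (13.7 to 17.3) and 92.6 CPM (87.1 to 98.5). The Gpc3 side was therefore 7.18-fold higher at P1 and 3.03-fold at P7. Between the ages Gjb2 was 2.54-fold higher at P7 on the Gpc3 side (2.41 to 2.68) and 6.01-fold on the Ccn3 side (5.27 to 6.87). The P1 level of the Ccn3 side lay within the interval of macrophages (9.95 CPM, 5.44 to 16.7). Its P7 level lay above theirs (52.2 CPM, 41.2 to 65.2). In macrophages the fold between the ages was 5.24 (2.94 to 10.0), and the part of background in the 6.01-fold was not tested. For Gjb6 the levels were 39.1 and 95.7 CPM on the Gpc3 side and 8.71 and 57.9 CPM on the Ccn3 side, a 4.49-fold and a 1.65-fold difference. Median depths of the sides were near each other, at 6922.5 and 7157.5 UMIs at P1 and 7079 and 7727 at P7.

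**Figure D3:**
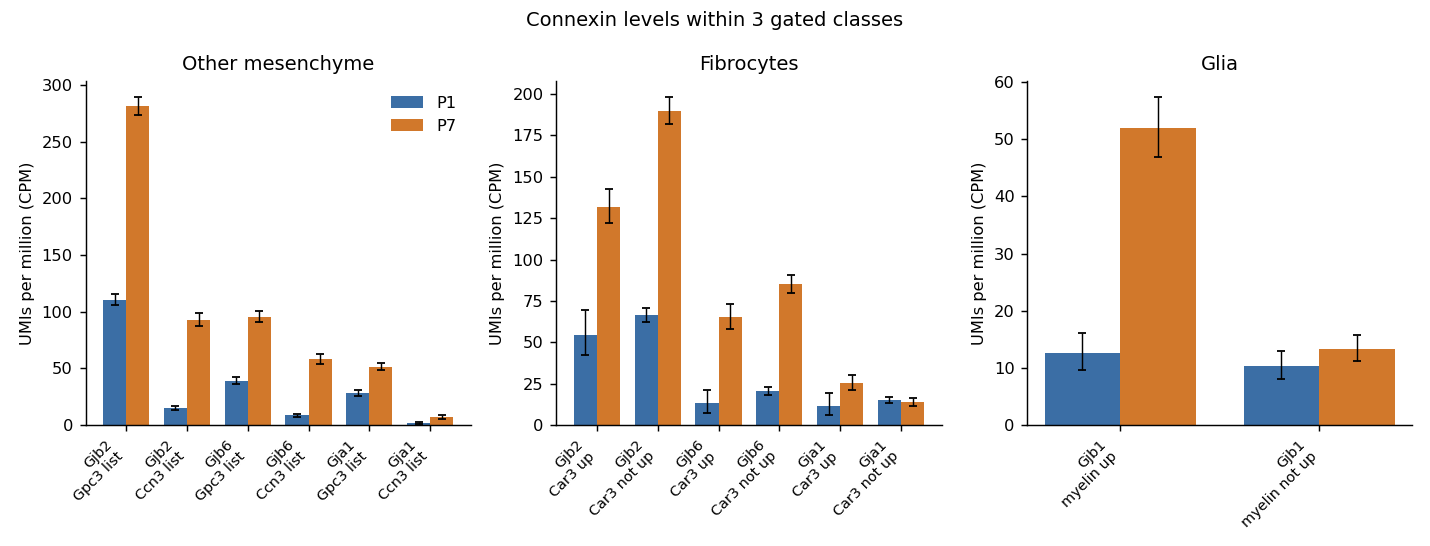
Level in CPM of connexin genes within other mesenchyme (cells led by the Gpc3 or the Ccn3 list), fibrocytes (Car3 up or not) and glia (at least 3 of 8 myelin markers up or not) at P1 (blue) and P7 (orange), with exact Poisson intervals. The Gpc3 side exceeds the Ccn3 side for Gjb2, Gjb6 and Gja1 at both ages, and Gjb1 at P7 is 51.9 CPM in glia with myelin markers against 13.4 CPM in the others.

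Gjb6 as a share of the pair's UMIs differed between these groups, and between the ages in fibrocytes. The share serves to compare groups and does not say how many transcripts each gene had. It was 26.1% on the Gpc3 side at P1 (24.4 to 27.9) and 25.4% at P7 (24.4 to 26.5), and 36.1% (31.7 to 40.7) and 38.5% (36.1 to 40.8) on the Ccn3 side. In epithelium with tectorial markers up it was 16.5% (12.2 to 21.5) and 16.4% (10.7 to 23.6). Over all epithelium it was 14.8% (11.5 to 18.7) and 23.6% (18.2 to 29.6), the latter with the 17 UMIs of the single cell above. Fibrocytes held 23.4% at P1 (21.1 to 25.7) and 31.4% at P7 (30.0 to 32.8).

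**Figure D4:**
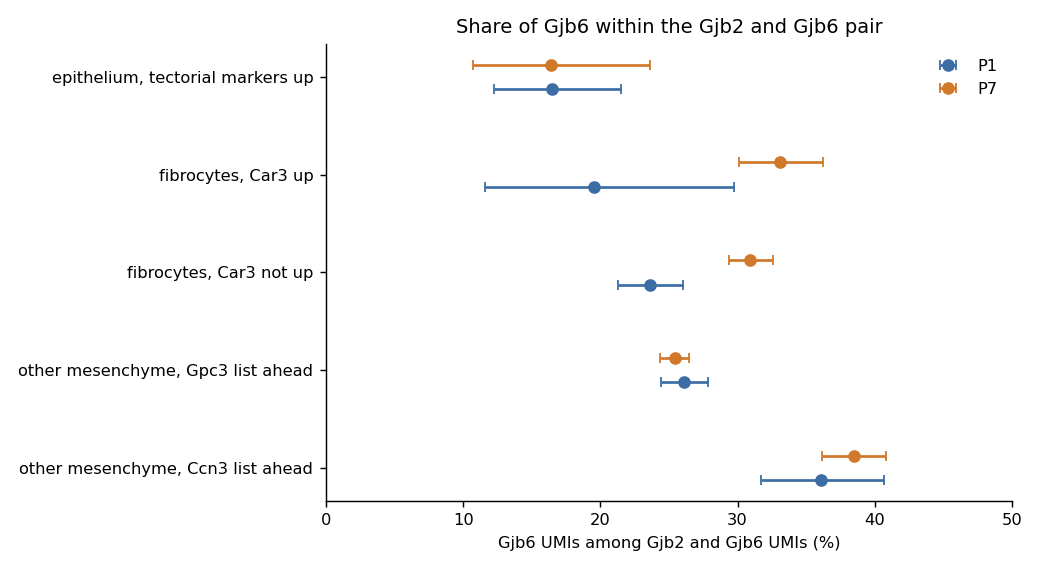
Gjb6 UMIs in percent of the UMIs of Gjb2 and Gjb6 together, in 5 groups of cells at P1 (blue) and P7 (orange), with exact binomial intervals. At P7 the share is 16.4% in epithelium with tectorial markers up, 33.1% and 30.9% in fibrocytes with Car3 up and not up, 25.4% in other mesenchyme of the Gpc3 list and 38.5% in that of the Ccn3 list.

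Fibrocytes with Car3 up, a carbonic anhydrase of the lateral wall, numbered 158 at P1 and 500 at P7. At P7 they held less Gjb2 than the other fibrocytes (132.0 CPM against 189.9 CPM, a ratio of 0.695, 0.635 to 0.760) and less Gjb6 (65.4 CPM against 85.0 CPM). At P1 the intervals of both ratios included 1. Dividing fibrocytes, with at least 3 of 8 cell cycle markers up, were few (53 and 18) and held 16 Gjb2 UMIs at each age. They stood lower in Gjb2, at 29.9 CPM against 66.6 CPM at P1 and 73.5 CPM against 174.7 CPM at P7. For dividing other mesenchyme, 337 and 210 cells, the ratio to the rest was 1.05 at P1 (0.913 to 1.20) and 0.725 at P7 (0.652 to 0.804).

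Most of the UMIs of the pair lay outside the epithelium. Epithelium held 6.81% of all Gjb2 UMIs at P1 and 1.38% at P7, fibrocytes 20.7% and 22.6%, other mesenchyme 44.5% and 48.4%, and ungated cells 24.4% and 23.3%. For Gjb6 epithelium held 3.51% and 1.02%. Since the share of each class also depends on how many of its cells were captured, these are shares of the libraries and not of the tissue.

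Gja1 was highest in endothelial cells at both ages and rested on few UMIs in epithelium. In endothelial cells, 172 at P1 and 195 at P7, it was 32.8 CPM (25.2 to 42.0) and 123.8 CPM (108 to 141), the highest of the 8 classes ordered at both ages. Other mesenchyme held 14.2 CPM (13.0 to 15.5) and 34.7 CPM (32.6 to 36.9), and fibrocytes 14.8 CPM (13.0 to 16.8) and 17.2 CPM (15.2 to 19.3). Epithelium held 10.9 CPM at P1 (26 UMIs) and 8.47 CPM at P7 (14 UMIs), and pericytes 1 and 2 UMIs. At P1 epithelium did not differ from fibrocytes (ratio of fibrocytes to epithelium 1.35, 0.902 to 2.12) or other mesenchyme (1.30, 0.878 to 2.01) beyond the interval. Neurons at P7 held 22.6 CPM from 19 UMIs, above fibrocytes in order but with overlapping intervals. Macrophages held 1 UMI at P1 and 16 UMIs at P7 (10.8 CPM), so the P7 level in epithelium was not above theirs.

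The log2 ratio of P7 to P1 for Gja1 was 1.92 in endothelial cells, 1.28 (1.13 to 1.44) in other mesenchyme, 0.21 (-0.04 to 0.47) in fibrocytes, 1.34 (0.93 to 1.76) in glia and -0.37 (-1.42 to 0.62) in epithelium. In other mesenchyme at P1, 14 cells of 5 or more UMIs held a large part of the counts. Without cells of that kind the level was 8.98 CPM at P1 and 33.8 CPM at P7, a log2 ratio of 1.91. When classes came from clusters, fibrocytes held 11.8 and 18.7 CPM, a ratio of 0.67. A Gja1 UMI was seen in 22.7% of endothelial cells at P1 and 55.9% at P7, and after thinning in 7.01% and 22.8%.

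The 2 sides of other mesenchyme differed more for Gja1 than for Gjb2. The Gpc3 side held 28.4 CPM at P1 and 51.6 CPM at P7, and the Ccn3 side 1.74 and 6.98 CPM, a 16.3-fold and a 7.39-fold difference. The P1 difference rests on 33 UMIs on the Ccn3 side, and the 14 cells above were not set apart in it. Between the ages Gja1 was 1.82-fold higher at P7 on the Gpc3 side (1.63 to 2.03) and 4.01-fold on the Ccn3 side (2.64 to 6.22). The 14 cells were not set apart in these folds either. Both levels of the Ccn3 side lay within the intervals of macrophages, 0.0180 to 3.96 CPM at P1 and 6.20 to 17.6 CPM at P7. The Ccn3 side was thus not shown to hold more Gja1 than macrophages. In fibrocytes at P7, cells with Car3 up held 25.5 CPM (21.2 to 30.5) and the others 13.8 CPM (11.8 to 16.1), the opposite order to that of Gjb2 and Gjb6. Glia held 5.26 CPM (4.03 to 6.74) at P1 and 13.3 CPM (11.6 to 15.1) at P7, the latter near the level in macrophages.

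Gjb1 was a glial gene in both libraries. Glia, gated by 8 markers such as Sox10, Erbb3 and Cdh19, held 11.3 CPM at P1 (9.44 to 13.4, 133 UMIs) and 29.4 CPM at P7 (27.0 to 32.0, 532 UMIs), a log2 ratio of 1.38 (1.11 to 1.67). They carried 64.6% and 75.9% of all Gjb1 UMIs. Macrophages held 2 and 5 UMIs, or 1.42 and 3.39 CPM. A UMI was seen in 5.64% of glia at P1 and 12.4% at P7, against 1.18% and 2.13% of macrophages, and after thinning in 2.05% and 4.61%. The median glial cell had 4938 UMIs at P1 and 4964 at P7, so depth hardly differed.

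The difference between the ages lay mainly in glia with myelin genes. A marker was up relative to its share in its own library, so the limit was not the same at both ages. The 8 markers of the glial gate summed in glia to 4124 CPM at P1 and 14308 CPM at P7. Glia with myelin genes had at least 3 of Mbp, Mag, Prx, Pmp2, Mal, Ncmap, Drp2 and Cldn19 up and numbered 708 at P1 and 1046 at P7. Gjb1 in them was 12.6 CPM at P1 (9.67 to 16.0) and 51.9 CPM at P7 (46.9 to 57.3), a log2 ratio of 2.05 (1.66 to 2.45). In the other glia it was 10.3 CPM (8.02 to 13.0) and 13.4 CPM (11.3 to 15.8), a ratio of 0.38 (-0.05 to 0.81). Myelin-marked glia therefore exceeded the others 1.22-fold at P1 (0.853 to 1.74) and 3.88-fold at P7 (3.19 to 4.73). A Gjb1 UMI was found in 6.78% and 22.7% of the former and in 4.95% and 6.51% of the latter. Their depths differed, with medians of 6124.5 and 4483 UMIs at P7, and after thinning the P7 shares were 7.58% and 2.86%.

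In the remaining classes Gjb1 rested on few UMIs, with 24 at P1 and 8 at P7 in fibrocytes, 3 and 27 in other mesenchyme, and 4 and 10 in epithelium. The 8 glial markers, all with UMIs, summed in other mesenchyme to 49.1 CPM at P1 and 460 CPM at P7 and in epithelium to 442 and 1046 CPM. Their part in the Gjb1 counts of these classes was not tested.

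To set these differences against all genes, each gene of at least 20 UMIs and 10 CPM in the library where it was higher was compared between the ages, and 2-fold was taken as the limit for a call. In epithelium 13.9% of 8042 genes were called higher at P7 and 9.46% lower, and none of the 3 members tested (Gjb2, Gjb6 and Gja1) was called. In fibrocytes 12.3% of 7851 genes were called higher and 5.66% lower, and 2 of 3 members, Gjb2 and Gjb6, were called higher. In other mesenchyme 9.95% of 7963 genes were called higher and 5.93% lower, and all 3 were called higher. The make-up of that class differed between the ages. On its Gpc3 side alone Gja1 was 1.82-fold higher (1.63 to 2.03), below the limit, and on its Ccn3 side 4.01-fold. The class includes 14 P1 cells of 5 or more Gja1 UMIs, which were not set apart in these folds. Without cells of that kind the log2 ratio of the whole class was 1.91 in place of 1.28. Whether the Gpc3 side would stay below the limit without them was not tested. The Ccn3 side was not above macrophages in Gja1 beyond the interval at either age. In glia 9.64% of 7740 genes were called higher and 8.95% lower, and 2 of the 3 tested, Gja1 and Gjb1, were called higher, with Gjb2 between the limits and Gjb6 too low to be tested. The median log2 ratio of all genes was 0.12, 0.18, 0.14 and 0.10 in these classes, so a member's ratio read against that median is lower by the same amount. In other mesenchyme 97.5% of the genes had a smaller ratio than Gjb2, and in fibrocytes 98.1% had a smaller one than Gjb6. These ranks were not particular to the mesenchymal classes. In macrophages, the background class, 97.8% had a smaller ratio than Gjb2 and 98.1% a smaller one than Gjb6, from 14 and 4 UMIs at P1.

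**Figure D5:**
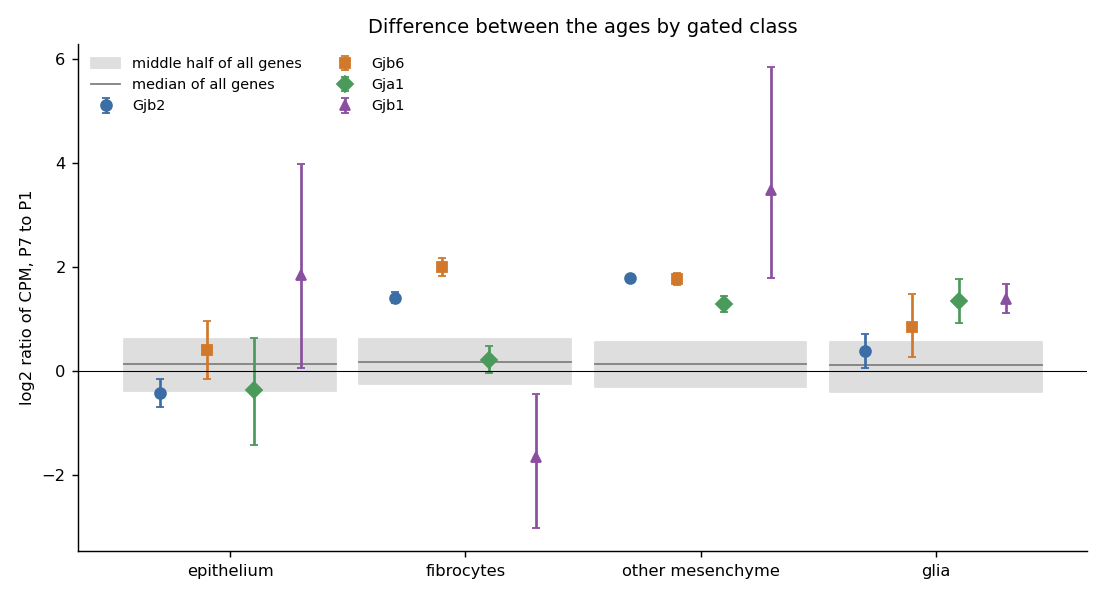
Log2 ratio of CPM at P7 to P1 for the 4 connexin genes in 4 gated classes, with exact intervals as bars, over the range between the quartiles (grey band) and the median (grey line) of all genes tested in the class. Gjb2 and Gjb6 lie above the band in fibrocytes and other mesenchyme, and Gjb1 outside glia has wide intervals from at most 27 UMIs.

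Of the 20 other connexin and pannexin genes listed, 18 were among the symbols and few were above the minimum. Gjc1, which encodes connexin 45, was tested in all 4 classes and not called, with 30.3 and 26.0 CPM in epithelium, 75.8 and 56.6 CPM in fibrocytes, 95.3 and 85.0 CPM in other mesenchyme and 51.7 and 40.2 CPM in glia. Gja4, the connexin 37 gene of vessels, was highest in endothelial cells (96.8 and 169.4 CPM) and was called higher in fibrocytes, at 7.15 and 34.6 CPM. The 8 endothelial markers summed in fibrocytes to 235 CPM at P1 and 513 CPM at P7, all 8 with UMIs, and Gja4 in macrophages was 2.13 and 16.9 CPM. Their part in the difference was not tested. In other mesenchyme it was 18.7 and 35.9 CPM, below the limit for a call. Gja3, the neighbour of Gjb2 and a connexin of the lens, had 13 UMIs in epithelium at P1 and 4 at P7. Gjc3, a glial connexin, stood at 2.54 CPM at P1 and 5.42 CPM at P7 in glia. Panx1 and Panx2, which encode pannexin channels, stayed under 10 CPM in each of the 4 classes.

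The 8 listed partners of gap junctions anchor, phosphorylate or degrade connexins. Those tested had median log2 ratios of -0.30, -0.27, -0.25 and -0.20 in epithelium, fibrocytes, other mesenchyme and glia. The medians of all genes were 0.12, 0.18, 0.14 and 0.10. The shares of all genes called higher and lower were 13.9% and 9.46% in epithelium and 12.3% and 5.66% in fibrocytes. They were 9.95% and 5.93% in other mesenchyme and 9.64% and 8.95% in glia. In epithelium 0 of the 7 partners tested were called. The calls named for the other classes leave out the partner whose values are not reported here. Cav1, the caveolin gene, was called lower in fibrocytes (11.7 and 5.79 CPM), in other mesenchyme (366.7 and 160.5 CPM) and in glia (25.2 and 6.58 CPM). In glia, Nedd4, a ubiquitin ligase that acts on connexin 43, was also called lower (982 and 477 CPM). Tjp1, the scaffold that binds connexin 43, was called in none of the 4 classes.

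Genes for ATP and calcium signalling belong to the route by which ATP from connexin channels acts in the ridge. Their calls stand beside shares of all genes called higher and lower of 13.9% and 9.46% in epithelium, 12.3% and 5.66% in fibrocytes, 9.95% and 5.93% in other mesenchyme, and 9.64% and 8.95% in glia, and differences between classes were not tested. In epithelium 3 of the 9 tested were called higher and none lower. These were P2rx2, an ATP-gated channel, at 65.6 and 289.2 CPM, P2ry1, an ATP receptor coupled to G proteins, at 4.62 and 34.5 CPM, and Itpr1, a calcium release channel, at 10.1 and 31.5 CPM. Ano1, the chloride channel that opens with calcium, was 39.5 CPM at P1 and 27.2 CPM at P7 there. In fibrocytes Ano1 was called higher (1.96 and 14.3 CPM) and Itpr2 lower (22.6 and 8.92 CPM) among 8 tested. Other mesenchyme had 4 of 10 called higher, namely Ano1, Itpr3, Entpd1 and Entpd2, and Itpr2 called lower. Entpd1 and Entpd2 encode enzymes that degrade ATP outside the cell. Entpd2 had a log2 ratio of 2.66 in other mesenchyme and 0.32 in glia, where it was not called. The 8 glial markers summed in other mesenchyme to 49.1 CPM at P1 and 460 CPM at P7. The part of glial RNA in the Entpd2 call was not tested. In glia 1 of 6 was called, Plcb4, at 18.8 and 8.57 CPM.

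The genes most like each member over the same 16 groups were found by Pearson's r of log2(CPM + 1). After Gjb6, the genes nearest to Gjb2 were Fgfr2, a fibroblast growth factor receptor (r = 0.94), Dpp4 (0.93), Sox9, a transcription factor of cartilage and of the otic epithelium (0.93), and Cnpy2 (0.91). For Gjb6 they were Gjb2, Fgfr2 (0.94), Sdf2 (0.93), Wnt5a (0.91) and Sox9 (0.91). Gja1 had looser company, with S100a16 at 0.88 and St3gal6 at 0.84, followed by Rpl3, Hba-a3 and Rpl38, genes of ribosomes and haemoglobin. Gjb1 was nearest to Dbi (0.93), Cdh19 (0.91), Ubl3 (0.91), Cab39l (0.91) and Gamt (0.90), of which Cdh19 is itself a marker of the glial gate. Between members, r was 0.45 for Gjb2 and Gja1 and -0.22 for Gjb2 and Gjb1.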

How the data were processed

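Cochlear duct cells of rats at P1 and P7 were sequenced by the authors as 1 droplet library per age with the 10x 3' V3 kit. The deposited values are UMI counts per gene and barcode from Cell Ranger 3.1.0 (genome rn6), not normalized, and no correction for doublets or free RNA is stated. Counts at 3' ends give a level per transcript captured, with the P1 library at 114285848 UMIs and the P7 library at 101264868.

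The limits on cells were more than 500 and fewer than 5000 genes, a minimum of 500 UMIs, and a mitochondrial share below 25%. Gating, summing and scaling to CPM used pandas 2.3.3, scipy 1.17.1 and numpy 2.4.6 under Python 3.11.15. No test fits 1 library per age. Intervals are exact (Poisson for levels, conditional binomial for ratios, Clopper-Pearson for shares). Classes were sums of marker-gated cells. For detection, cells under 2000 UMIs were left out (252 at P1 and 711 at P7) and the rest thinned to that number. Alternatives were stricter, looser and cluster-based classes (leidenalg 0.10.2), a 10% mitochondrial limit, removal of doublets called by Scrublet in scanpy 1.11.5, per-cell means and other totals. The steps were tested on simulated counts. Named genes are the 4 members, 3 lists (other connexins and pannexins, partners, ATP and calcium signalling), the 5 genes most like each member and gate markers. The members and lists were chosen with earlier results of these data known. Promoters and gene order came from RefSeq's GRCr8 tables, matched by symbol for 4 of 4 members. The values of 1 listed partner and the names of some gate markers are not reported here.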

Additional observations from a re-analysis of the deposited data

Results flagged for a closer look

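Gjb2 differed between the ages in opposite directions in different classes. Its log2 ratio of P7 to P1 was 1.41 in fibrocytes, 1.78 in other mesenchyme and 0.38 in glia, but -0.43 in epithelium, each with an interval that excludes 0. With a gate of 2 markers the epithelial interval included 0 (-0.18, -0.43 to 0.07). The glial interval included 0 with classes from clusters (0.10, -0.17 to 0.38), with markers up at 4 times their share (0.08, -0.41 to 0.56) and with totals that leave out mitochondrial, ribosomal and haemoglobin genes (0.30, -0.02 to 0.64). The glial levels were not above those in macrophages beyond the counting interval. Gjb1 was likewise higher at P7 in glia (1.38), other mesenchyme (3.48) and epithelium (1.85), and lower in fibrocytes (-1.65), where the values outside glia rest on at most 27 UMIs per class and library. The difference between classes was not tested, since each age has 1 library.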

How the results depend on the processing

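Of 63 alternative values for the 7 main ratios, 54 stayed within the interval of the reported value, 9 left it and none reversed a ratio whose interval excludes 0. With 4 markers up and a lead of 2, the log2 ratio of Gjb2 was -0.71 in epithelium and 1.23 in fibrocytes. With markers up at 4 times their share, only 534 P1 and 217 P7 cells were fibrocytes, and their Gjb2 levels were 99.7 and 328 CPM. In that setting fibrocytes gave 1.72 for Gjb2, 2.42 for Gjb6 and -0.13 for Gja1. With classes from clusters they gave 1.56, 2.21 and 0.67. A mitochondrial limit of 10% gave -0.72 for Gjb2 in epithelium, and its range over all 9 alternatives was -0.72 to -0.18, the last, from a gate of 2 markers, with an interval that includes 0. That gate gave 0.72 for Gjb6 in epithelium, with an interval that excludes 0. The cause of these shifts was not tested. For each ratio, removing the cell of the class with most UMIs of the gene in each library was added after seeing the data. It left all 7 within their intervals, though Gjb6 in epithelium went from 0.40 to -0.05. Of 80 values for the other 9 ratios, 11 left the interval. Thinning to 4000 in place of 2000 UMIs raised the difference in detection between the ages to 17.8 percentage points for Gjb2 and 14.9 for Gjb6 in fibrocytes and 6.01 for Gjb1 in glia. Genes called numbered 1879, 1408, 1264 and 1439 in epithelium, fibrocytes, other mesenchyme and glia at 2-fold, 3582, 3160, 3058 and 3229 at 1.5-fold, and 552, 402, 387 and 445 with a minimum of 50 CPM.

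Scrublet called 4.48% of cells at P1 and 6.02% at P7, and 13.5% and 10.6% of macrophages. Without them macrophages held 2.70 and 43.4 CPM of Gjb2 and glia 4.86 and 8.91 CPM. Clusters put 94.4% and 90.3% of gated cells in the class of the gate. Epithelium, with 234 and 143 cells, limits what can be said of Gja1 and Gjb1 there. No paired analysis was possible because each age has 1 library.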

Other observations

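Gja1 was concentrated in few cells at P1. Of the 1105 Gja1 UMIs in the kept cells, 215 (19.5%) lay in 16 cells of 5 to 40 UMIs each, 14 of them gated as other mesenchyme and 2 ungated. The genes that led in these cells, chosen after their values were seen, were Ptgds, a prostaglandin synthase (6733 CPM against 22.1 CPM in all other P1 cells, with UMIs in 4 of the 16), Col1a1, the chain of type I collagen (9278 against 241 CPM, in 16 of 16), P4ha2, an enzyme of collagen synthesis (448 against 9.29 CPM, in 14 of 16), and the transporter gene Slc47a1 (139 against 0.399 CPM, in 9 of 16). At P7, 12 cells held 5 to 9 Gja1 UMIs, 70 of 2194 in all (3.19%). Of these, 7 were gated as endothelial cells and 5 as other mesenchyme. Flt1, Plvap and Cdh5, themselves markers of the endothelial gate, were among the leading genes, each with UMIs in 7 of the 12. The cells were picked by Gja1 itself, so their Gja1 level is a description.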
